A study of Mus musculus with 21 samples.

Results

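PTH(1-36) was compared with the pair of shorter fragments of parathyroid hormone (PTH) that also begin at the first residue, hPTH(1-34) and hPTH(1-31). The comparison took the 3 arrays with the treatment label PTH(1-36) and the 6 arrays labelled hPTH(1-34) or hPTH(1-31), 9 of the 21 arrays of the series, over all 22180 genes measured by a transcript cluster with a single symbol. The cells were primary osteoblasts, the bone-forming cells, from the calvaria of C57BL/6J mouse pups aged 7 to 10 days. They were at passage 2, were differentiated from day 3 and lost serum on day 10 for 24 h. They were then treated for 4 h in serum-free medium with vehicle or with 100 nM of PTH(1-36), hPTH(1-34) or hPTH(1-31). Each group had 3 arrays, and the labels state that osteoblasts were prepared separately for each replicate. 100 ng of total RNA per sample was read on Affymetrix Mouse Gene 2.0 ST arrays. The 3 peptides share their first residue and end at residue 36, 34 or 31. The protocol names PTH(1-36) without a species and gives it a different supplier from the human hPTH(1-34) and hPTH(1-31), so length, species and supplier cannot be told apart here.

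PTH acts on osteoblasts through Pth1r, a receptor that signals through Gs, cyclic AMP and protein kinase A and also through Gq, phospholipase C and protein kinase C. The first residues of the hormone activate the receptor and the later ones hold it in place, so all 3 peptides carry the activating end. In osteoblasts the hormone is known to raise the osteoclast cytokine RANKL (Tnfsf11), to lower its decoy receptor osteoprotegerin (Tnfrsf11b), to induce NR4A nuclear receptors and to act on genes of the Wnt pathway.

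The 9 arrays were alike in level, with medians between 3.52 and 3.61 log2 units. Within a group they correlated at 0.990 to 0.993 over genes, and PTH(1-36) arrays correlated with shorter-analog arrays at 0.990 to 0.993, a range that overlaps the first. Of the 10 osteoblast markers, Col1a1, the main collagen chain of bone, was high on all 9 arrays, between 13.19 and 13.25 log2 units. Col1a2 was also high, between 12.83 and 12.90, and Sparc, or osteonectin, lay between 12.17 and 12.33. Ibsp, a sialoprotein of the bone matrix, varied between 5.47 and 9.25. Alpl, Dlx5 and Pth1r lay between 5.89 and 9.67, and Sp7 (osterix), a transcription factor of osteoblasts, between 5.01 and 5.47. Markers of mature cells were low, with Bglap (osteocalcin) between 2.61 and 3.79 and Dmp1, of osteocytes, between 2.40 and 3.29. Some macrophage markers were also high. Lyz2 (lysozyme) lay between 11.93 and 12.24, and Cd68 between 10.87 and 11.35. Of the genes listed with them, Calcr, Dcstamp and Ocstamp were low, between 2.34 and 4.00, and Ctsk lay between 9.14 and 9.37. The mean level of the 24 macrophage and osteoclast markers was 7.99 to 8.21 with PTH(1-36), 8.13 to 8.21 with hPTH(1-34), 8.14 to 8.20 with hPTH(1-31) and 8.11 to 8.28 with vehicle. In such bulk RNA, fewer cells of a type and less RNA per cell cannot be told apart.

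A single gene was called between PTH(1-36) and the mean of the shorter analogs. Prg4 (transcript cluster 17227892), which encodes the lubricating proteoglycan lubricin, was induced by all 3 peptides and less by the longest. Vehicle cultures gave 6.06, 6.05 and 5.87 log2 units, and PTH(1-36) gave 7.66, 7.16 and 7.01. hPTH(1-34) gave 8.43, 8.28 and 8.15, and hPTH(1-31) gave 7.93, 8.04 and 7.95. All 3 PTH(1-36) arrays lay above vehicle and below all 6 arrays of the shorter peptides. The log2 difference from the mean of the shorter analogs was -0.85 ± 0.12 (SE; 95% interval -1.10 to -0.61), 1.81-fold, with an adjusted p of 0.0202 (limma with Benjamini-Hochberg adjustment over 22180 genes, 3 arrays against 6). Against vehicle the log2 rise was 1.28 with PTH(1-36), 2.29 with hPTH(1-34) and 1.98 with hPTH(1-31), so PTH(1-36) reached 60.1% of the mean rise of the shorter peptides. That 1 call is 0.00451% of the genes tested, and 0 genes were called higher with PTH(1-36). At an unadjusted p under 0.05 there were 740 genes higher and 716 lower, 6.56% of all genes. This total of 1456 depended on single arrays. Leaving out PTH(1-36) replicate 3 gave the lowest count, 1086, and leaving out PTH(1-36) replicate 1 the highest, 1811. Replicate 3 of PTH(1-36) also had the lowest weight of the 21 arrays, 0.620, in the alternative fit with array weights. The Prg4 call was lost when the fit held only the 9 arrays of the 3 peptides (adjusted p = 0.623, the log2 difference still -0.85), and when any 1 of 7 of those 9 arrays was left out. Without PTH(1-36) replicate 2 or 3 the adjusted p was 0.191 or 0.134; without hPTH(1-34) replicate 1 or 2 it was 0.0778 or 0.0678; without hPTH(1-31) replicate 1, 2 or 3 it was 0.0569, 0.0813 or 0.0632.

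**Figure D1:**
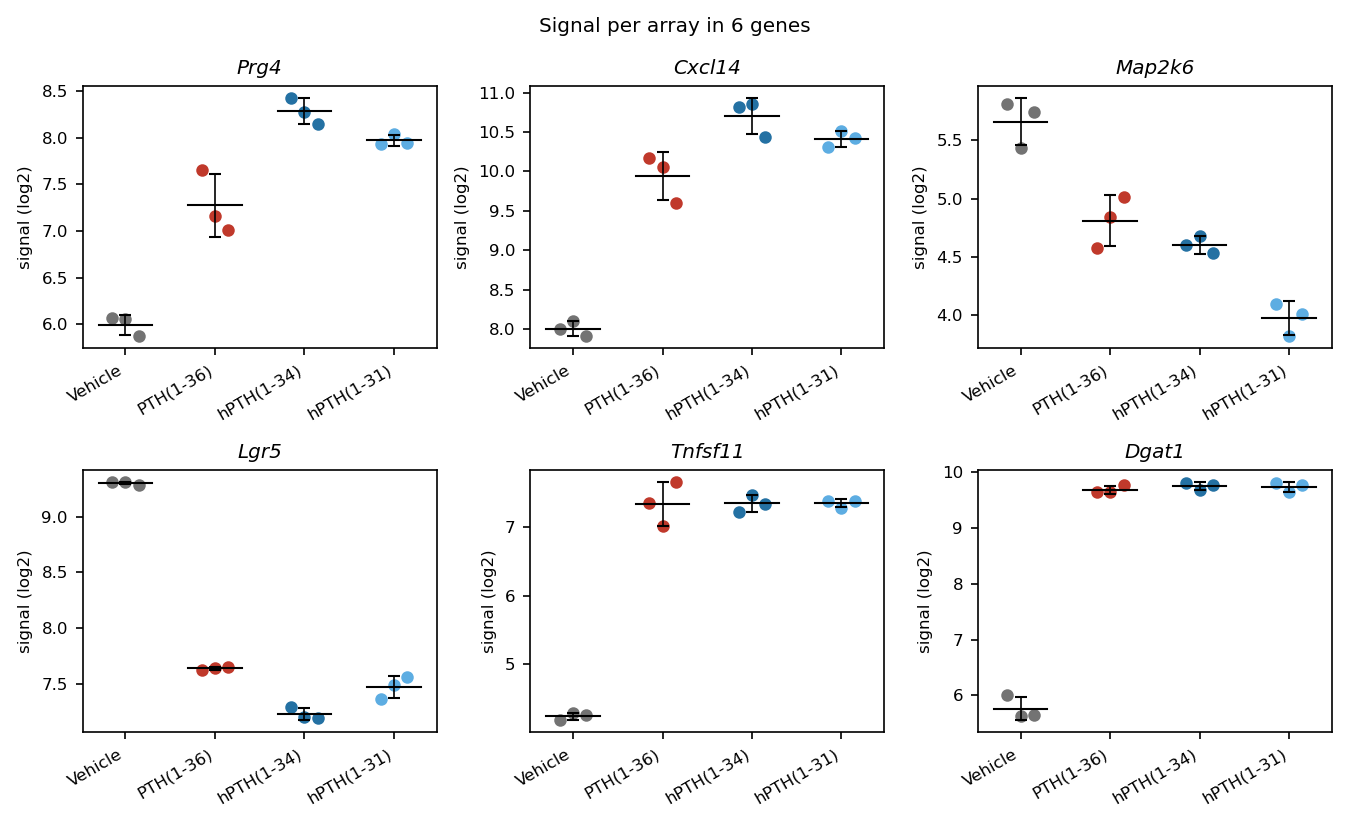
Signal in log2 units (vertical axis, not starting at 0) on each array for 6 genes, in vehicle, PTH(1-36), hPTH(1-34) and hPTH(1-31), 3 points per group, with the mean as a line and the SD as bars. Prg4 and Cxcl14 sit lower with PTH(1-36) than with either shorter peptide, Map2k6 is lowest with hPTH(1-31), and Tnfsf11 and Dgat1 overlap among the 3 peptides.

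The 3 pairs of peptides were compared at the same dose and time, and 1 gene was called in each pair that held PTH(1-36). Against hPTH(1-34), Prg4 was lower by a log2 difference of -1.01 (95% interval -1.29 to -0.73; limma adjusted p = 0.0144 over genes and 0.0432 adjusted jointly over genes and the 3 pairs), and this call was 0.00451% of genes. Against hPTH(1-31), the Prg4 difference was -0.70 (95% interval -0.98 to -0.41; limma adjusted p = 0.363). The gene called against hPTH(1-31) was Map2k6 (cluster 17257906), which encodes a kinase that activates p38 MAP kinases. PTH(1-36) gave 4.58, 4.84 and 5.01, hPTH(1-34) gave 4.60, 4.68 and 4.53, and hPTH(1-31) gave 4.10, 3.82 and 4.01, against 5.81, 5.43 and 5.74 in vehicle. All 3 peptides lowered Map2k6, and hPTH(1-31) stood apart from both of the others, which overlapped. The log2 difference of PTH(1-36) from hPTH(1-31) was 0.83 (95% interval 0.59 to 1.08; limma adjusted p = 0.033 over genes and 0.0496 jointly), also 0.00451% of genes. Its difference from hPTH(1-34) was 0.21 (95% interval -0.04 to 0.45; limma adjusted p = 0.827). hPTH(1-34) and hPTH(1-31) differed in 0 genes by limma, with 994 genes (4.48%) at an unadjusted p under 0.05, against 1423 (6.42%) and 1257 (5.67%) in the pairs with PTH(1-36). In Map2k6 the log2 difference between the shorter peptides was 0.63 (limma adjusted p = 0.775 over genes). A moderated F test for any difference among the 3 peptides called Prg4 and Map2k6, each at an adjusted p of 0.0452 (limma), 0.00902% of genes. With only the 9 arrays of the 3 peptides in the fit, the limma adjusted p was 0.68 for Prg4 against hPTH(1-34) and 0.621 for Map2k6 against hPTH(1-31). The Prg4 call was also lost without PTH(1-36) replicate 2 or 3 (limma adjusted p = 0.098 and 0.0979) and without hPTH(1-34) replicate 1 or 2 (0.201 and 0.119). The Map2k6 call held without PTH(1-36) replicate 1 (limma adjusted p = 0.00607) and was lost without any other 1 of the 9 arrays (0.0577 to 0.244) and over all transcript clusters (0.0881). Both F test calls were likewise kept without PTH(1-36) replicate 1 and lost without each of the other 8 (limma adjusted p of 0.0777 to 0.284). Over all transcript clusters neither was kept in the F test (limma adjusted p = 0.105 for Prg4 and 0.122 for Map2k6).

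Cxcl14, a secreted chemokine, had the second largest deficit among genes that responded to the peptides. It read 10.17, 10.06 and 9.60 with PTH(1-36), 10.82, 10.85 and 10.44 with hPTH(1-34), 10.31, 10.51 and 10.43 with hPTH(1-31), and 7.92 to 8.11 with vehicle. The 3 PTH(1-36) arrays lay below all 6 others, but the log2 difference of -0.62 ± 0.11 (SE) did not pass the test (limma adjusted p = 0.247). It passed with a spread estimate that follows the level of expression (limma with trend and robust, adjusted p = 0.0384). PTH(1-36) reached 75.8% of the mean Cxcl14 rise of the shorter peptides.

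**Figure D2:**
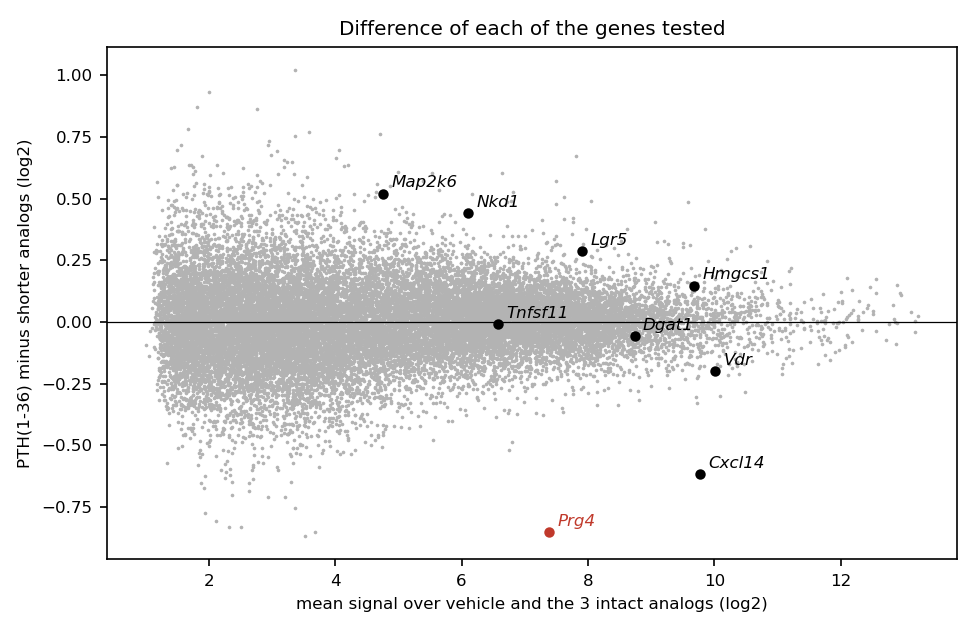
Log2 difference between PTH(1-36) and the mean of the shorter analogs (vertical axis) against the mean log2 signal over vehicle and the 3 peptides (horizontal axis), 1 point for each of 22180 genes. Prg4 (red, -0.85) is the called gene, Cxcl14 lies at -0.62 at higher signal, and the widest scatter is at low signal.

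The naming rule filled each direction to 10 genes by unadjusted p, and none of these but Prg4 was called. On the low side, besides Prg4 and Cxcl14, 2 genes were induced by all 3 peptides. Parm1, a mucin-like membrane protein, read 7.12, 6.93 and 6.57 with PTH(1-36) and 7.17 to 7.61 over the 6 shorter-analog arrays, from 5.55 to 5.73 in vehicle (log2 difference -0.48, limma adjusted p = 0.457). Sntb1, a syntrophin of the dystrophin complex, read 6.30, 6.62 and 6.56 against 6.77 to 7.04, from 5.86 to 5.95 in vehicle (-0.39, limma adjusted p = 0.457). Parm1 and Sntb1 had PTH(1-36) between vehicle and the shorter peptides, with no overlap. The other low genes, Rtp2, Igsf21, Alk, Ccr10, Zfp474 and Ccdc171, had log2 differences of -0.64 to -0.41 at signals of 4.90 or below on these 9 arrays, and Ccr10 overlapped between the groups.

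On the high side, Nkd1, Lgr5 and Map2k6 were repressed by all 3 peptides. Nkd1, an inhibitor of Wnt signalling, read 6.14, 5.93 and 6.41 with PTH(1-36) and 5.57 to 5.87 with the shorter peptides, from 6.71 to 6.86 in vehicle (log2 difference 0.44 ± 0.09 SE, limma adjusted p = 0.442). PTH(1-36) lay between the groups and reached 59.5% of the shorter peptides' fall. The others were genes whose vehicle level lay near that of PTH(1-36) or that were low on the array. Csgalnact2, an enzyme of chondroitin sulfate synthesis, read 7.65, 7.57 and 7.84 with PTH(1-36), 7.50 to 7.73 in vehicle and 7.20 to 7.49 with the shorter peptides (0.35, limma adjusted p = 0.457). Cdkn2c, an inhibitor of cyclin-dependent kinases, read 6.83, 6.74 and 7.01, against 6.67 to 6.79 in vehicle and 6.39 to 6.68 (0.35). Gen1, a nuclease that resolves recombination junctions, read 5.62, 5.54 and 5.65, against 5.44 to 5.68 in vehicle and 5.11 to 5.33 (0.39). Ear14, Dus4l, Slc25a40 and Sertad3 had log2 differences of 0.67, 0.49, 0.38 and 0.40.

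The whole response to PTH was slightly smaller with PTH(1-36). Genes that responded were taken as the 2647 genes called in the mean of the 3 peptides against vehicle (11.9% of genes; 1208 or 5.45% higher, 1439 or 6.49% lower), a choice that weighs the 3 peptides equally and so favours neither direction of a difference between them. The choice used the same estimate of each gene's spread as the comparison, so genes with a small estimate entered more easily. That can raise the share of the set at a low p and narrow its intervals. The set was defined after the data were seen, and what follows describes it without a test, with all 3 responses measured from the same 3 vehicle arrays. The mean log2 change from vehicle over these genes, in the direction of the response, was 0.519, 0.513 and 0.528 on the PTH(1-36) arrays. It was 0.559, 0.567 and 0.544 on the hPTH(1-34) arrays and 0.558, 0.554 and 0.584 on the hPTH(1-31) arrays. All 3 PTH(1-36) arrays lay below all 6 others, while hPTH(1-34) and hPTH(1-31) overlapped. Over the 1208 higher genes alone PTH(1-36) overlapped with hPTH(1-34), at 0.589 to 0.624 against 0.610 to 0.648, and over the 1439 lower genes it did not overlap with either, at 0.443 to 0.449 against 0.452 to 0.512. The group means were 0.520 ± 0.0077, 0.557 ± 0.012 and 0.565 ± 0.016 (SD, n = 3), so PTH(1-36) stood at 92.7% of the mean of the shorter peptides. Among the 229 response genes that changed at least 2-fold it stood at 91.9%, with 92.4% for the 175 that rose and 89.9% for the 54 that fell. Over these 229 genes the shorter peptides were apart from each other as well. The 3 arrays of hPTH(1-34), at up to 1.55, lay above the 1.42 to 1.45 of PTH(1-36) and below the 1.57 to 1.60 of hPTH(1-31). The 175 genes gave the same order without overlap, and over the 54 genes the shorter peptides overlapped.

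The smaller response was spread over many genes. PTH(1-36) lay nearer to vehicle than the mean of the shorter analogs in 1718 of the 2647 response genes (64.9%) and further in 924, against 52.1% nearer over all genes. In the 229 genes changed at least 2-fold it lay nearer in 190 (83.0%) and further in 39. At an unadjusted p under 0.05, 210 of the 2647 lay nearer and 54 further (823 and 633 over all genes), and in the 229 genes the counts were 43 and 1. That is 19.2% of the 229 genes at this p, against 6.56% of all genes, though the choice by the same spread estimate can raise the first share. Gene by gene, the share of the shorter peptides' response reached by PTH(1-36) had a median of 91.4% over the 229 genes, with quartiles at 86.4% and 97.6%, and Prg4 was the lowest at 60.1%.

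**Figure D3:**
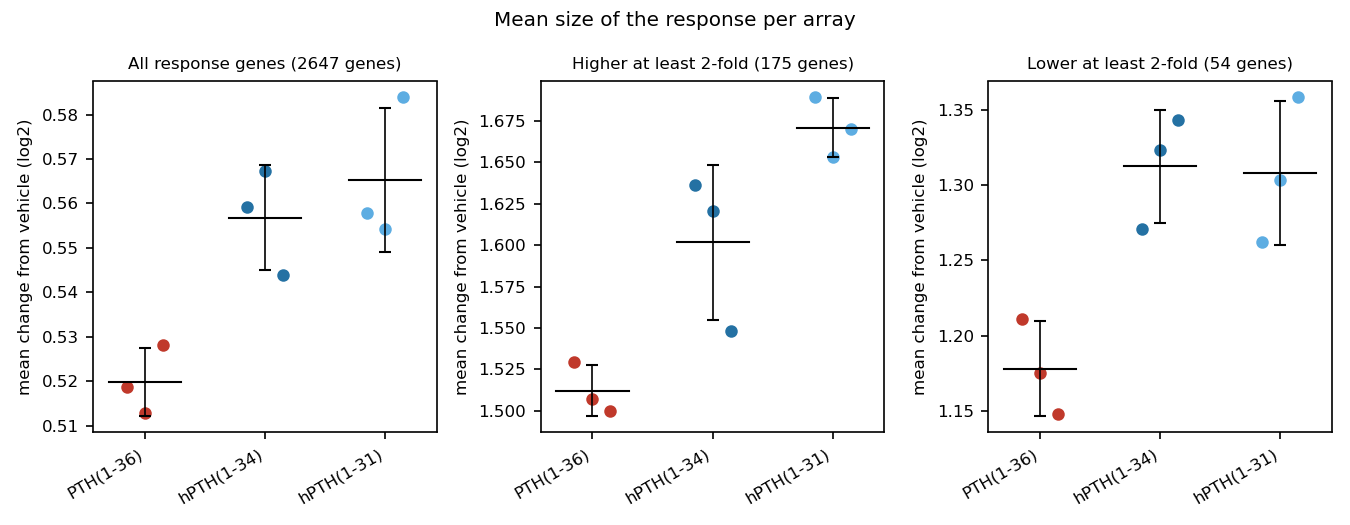
Mean log2 change from vehicle in the direction of the response (vertical axis, not starting at 0) on each array of PTH(1-36), hPTH(1-34) and hPTH(1-31), for all 2647 response genes and for those higher (175) or lower (54) by at least 2-fold, with means as lines and SDs as bars. The PTH(1-36) arrays are below all 6 other arrays in each of these 3 sets, and hPTH(1-34) lies wholly below hPTH(1-31) in the set of 175.

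In 22 of the 229 genes (9.61%) the 3 PTH(1-36) arrays lay nearer to vehicle than all 6 shorter-analog arrays, and in 0 they lay further. By the same measure they lay nearer in 3.74% and further in 1.25% of the 2647 response genes. Over all genes these shares were 1.55% and 0.996%. In either sense of direction, PTH(1-36) lay above the others without overlap in 1.30% of all genes and below in 1.24%. Only Prg4 among the 22 was called. Of the induced ones, Nap1l5, an imprinted gene of the nucleosome assembly family, read 5.47, 5.91 and 5.39 with PTH(1-36) against 5.92 to 6.25, from a vehicle mean of 4.48. It reached 69.8% of the shorter peptides' rise (limma adjusted p = 0.512). Ret, a receptor tyrosine kinase, reached 79.6%, Prok2, a secreted prokineticin, 80.9%, Tnfrsf21, a death receptor, 79.4%, and Lrig1, a membrane inhibitor of growth factor receptors, 81.7%. Thbd (thrombomodulin) reached 88.8%, the actin-binding genes Synpo2 and Cnn1 89.6% and 89.7%, the chaperone Hsph1 87.7%, the imprinted gene Peg3 88.6% and the kinesin Kif21a 91.9%. Of the repressed ones, Jag1, a Notch ligand, read 7.41, 7.56 and 7.59 with PTH(1-36) against 7.00 to 7.40, from 8.41 to 8.51 in vehicle, so it reached 77.3% of the fall (log2 difference 0.28, limma adjusted p = 0.512). Rtl3, a gene derived from a retrotransposon, also reached 77.3%, and Ptx3, a secreted pentraxin, 84.9%. The rest of the 22 were Prg4, Cxcl14, Parm1, Pde10a and 4 genes of the Wnt pathway, Rspo2, Rspo3, Lgr5 and Fzd5.

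Of 46 measured genes of the Wnt pathway, 0 were called in either direction, and 7 had an unadjusted p under 0.05, all higher with PTH(1-36), where 3.34% of all genes were higher at this p. The median difference of the list was -0.00, as over all genes. The 7 were secreted R-spondins, which amplify Wnt signals, their receptor Lgr5, the Wnt receptors Fzd5 and Fzd8, and Nkd1. Rspo2 read 7.43, 7.24 and 7.35 with PTH(1-36), 7.12, 6.96 and 6.88 with hPTH(1-34), 7.17, 7.19 and 6.84 with hPTH(1-31), and 8.46 to 8.65 in vehicle. Rspo3 read 8.45, 8.40 and 8.40 with PTH(1-36), 8.13, 8.36 and 8.29 with hPTH(1-34), 8.07, 8.08 and 8.14 with hPTH(1-31), and 9.90 to 9.97 in vehicle. Both R-spondins fell with every peptide, and neither had overlap between PTH(1-36) and the shorter ones. Their log2 differences were 0.31 ± 0.09 and 0.24 ± 0.07 (SE), with limma adjusted p of 0.532 and 0.598. Rspo1, with a smaller response, read 6.29, 6.56 and 6.35 against 6.20 to 6.30 and overlapped.

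Lgr5, the R-spondin receptor, gave 7.62, 7.64 and 7.65 with PTH(1-36), 7.29, 7.20 and 7.19 with hPTH(1-34), 7.36, 7.49 and 7.56 with hPTH(1-31), and 9.29 to 9.31 in vehicle. The 3 PTH(1-36) arrays lay closer to one another than the arrays of either shorter peptide, and above all 6. The log2 difference was 0.29 ± 0.06 (SE; limma adjusted p = 0.442), and against hPTH(1-34) alone it was 0.41 (limma adjusted p = 0.0833). Against hPTH(1-34), Lgr5 was called among genes above the median level only, and with trend and robust variances. With the latter it was also called by the F test. Fzd5 read 5.64, 5.65 and 5.65 with PTH(1-36) against 5.25 to 5.56, from 7.11 to 7.30 in vehicle (0.26 ± 0.07 SE, limma adjusted p = 0.512). Fzd8 read 6.72, 6.65 and 6.78 against 6.41 to 6.72, a range that overlapped. PTH(1-36) reached 85.3% of the shorter peptides' fall in Lgr5, 85.6% in Fzd5, 79.2% in Rspo2 and 86.4% in Rspo3. Not all of the pathway lay this way. Axin2, a feedback target of Wnt signalling, had a mean of 4.88 with PTH(1-36), 5.02 with hPTH(1-34) and 4.89 with hPTH(1-31), and Wnt4 had 5.23, 5.28 and 5.26. Of the 20 response genes of the list, PTH(1-36) lay nearer to vehicle in 13. Such counts, here and in the lists that follow, are to be read against 64.9% of all response genes. Among response genes changed at least 2-fold the share was higher, 83.0%.

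In the panel, the RANKL axis genes Tnfsf11 and Tnfrsf11b and the strongly induced Dgat1 overlapped between PTH(1-36) and the shorter peptides. Pde10a, also induced and given below, did not. Tnfsf11 (RANKL), which drives osteoclast formation, read 7.36, 7.02 and 7.66 with PTH(1-36), 7.23, 7.48 and 7.35 with hPTH(1-34), 7.39, 7.29 and 7.39 with hPTH(1-31), and 4.18 to 4.28 in vehicle. The log2 difference was -0.01 with a 95% interval of -0.36 to 0.34, which bounds a difference between PTH(1-36) and the shorter peptides at under 1.5-fold either way. Its decoy receptor Tnfrsf11b read 5.07, 5.26 and 5.66 with PTH(1-36) and 5.15 to 5.60 with the shorter peptides, from 6.56 to 6.87 in vehicle, and the interval was -0.25 to 0.31. Dgat1, the last enzyme of triacylglycerol synthesis, rose by a log2 change of 3.93, 4.00 and 3.98 with PTH(1-36), hPTH(1-34) and hPTH(1-31), and the interval of the difference was -0.24 to 0.12. PTH(1-36) reached 99.7% of the shorter peptides' rise for Tnfsf11 and 98.5% for Dgat1. Vdr, the vitamin D receptor, read 11.00, 10.83 and 10.67 with PTH(1-36) against 10.93 to 11.14 from 7.00 to 7.24 in vehicle, and reached 94.9% (interval -0.39 to -0.01, limma adjusted p = 0.751). Il6, an inflammatory cytokine that supports osteoclasts, had the widest interval of this panel, -0.30 to 0.60, which passes 1.5-fold.

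**Figure D4:**
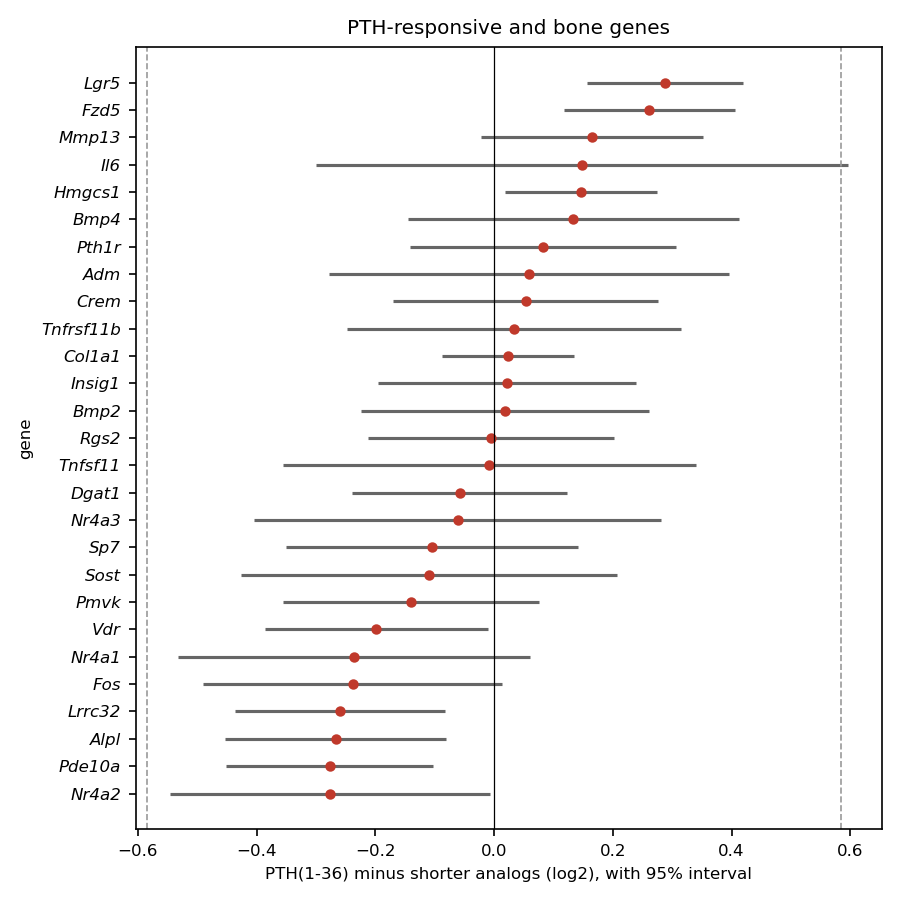
Log2 difference between PTH(1-36) and the mean of the shorter analogs with its 95% interval (horizontal axis) for 27 measured genes of the panel; dashed lines mark 1.5-fold. Lgr5 and Fzd5 lie on the high side, Nr4a2, Pde10a and Alpl on the low side, Tnfsf11 and Dgat1 near 0, and the interval of Il6 alone crosses a dashed line.

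Early targets of cyclic AMP and of its transcription factor CREB lay mostly on the low side. Of 31 measured, 24 had a difference below 0 and 7 above, beside 11127 below and 10998 above over all genes. The median was -0.07 against -0.00 over all genes. The list had 0 called and 3 at an unadjusted p under 0.05 on the low side, where 3.23% of all genes lay. Pde10a, a phosphodiesterase that breaks down cyclic nucleotides, read 7.02, 7.10 and 7.05 with PTH(1-36) and 7.20 to 7.42 with the shorter peptides, from 5.17 to 5.32 in vehicle, without overlap (log2 difference -0.28, limma adjusted p = 0.598). Junb, an AP-1 transcription factor, read 6.73, 6.84 and 6.97 against 7.05 to 7.37, also without overlap (-0.31, limma adjusted p = 0.651). The nuclear receptor Nr4a2 read 8.85, 8.85 and 8.58 against 8.84 to 9.24, from 5.89 to 6.55 in vehicle, with overlap, and reached 90.4% of the shorter peptides' rise. Nr4a3 reached 98.4%, Nr4a1 87.2% and the CREB family member Crem 105%. PTH(1-36) lay nearer to vehicle in 18 of the 22 response genes of this list.

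Feedback genes of cyclic AMP and G proteins had 0 called and 0 of 32 at an unadjusted p under 0.05, and PTH(1-36) lay nearer to vehicle in 10 of their 11 response genes. Rgs2, an inhibitor of G protein signalling, read 7.53, 7.33 and 7.44 with PTH(1-36) and 7.33 to 7.58 with the shorter peptides, from 6.92 to 7.20 in vehicle. The receptor itself, Pth1r, fell with each peptide, from 7.12 to 7.30 in vehicle to 6.09, 6.11 and 6.37 with PTH(1-36) and 5.89 to 6.40 with the shorter ones, and the interval of the difference was -0.14 to 0.31. Genes of the calcium, protein kinase C and NFAT response had 0 of 23 called, with 1 higher and 2 lower at an unadjusted p under 0.05. Of these, Ier3, a stress-induced survival gene, read 6.54, 6.40 and 6.48 against 6.53 to 6.95, and the list's median was 0.03.

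Inflammatory and acute phase genes had the lowest median of the 23 gene lists, -0.13. 0 of 34 were called, and 26 had a difference below 0 and 8 above, beside 11127 below and 10998 above over all genes. At an unadjusted p under 0.05 there were 6, all lower with PTH(1-36), where 3.23% of all genes were lower. Besides Cxcl14 these were Nfkbie and Irak3, inhibitors of NF-kappaB and interleukin-1 receptor signals, Zc3h12a, an RNase that degrades cytokine mRNAs, the adhesion molecule Icam1, and Lcn2 (lipocalin-2). Nfkbie read 6.65, 6.54 and 6.63 with PTH(1-36), 6.87, 7.03 and 6.96 with hPTH(1-34), 7.19, 6.85 and 6.89 with hPTH(1-31), and 5.89 to 6.34 in vehicle, so the groups did not overlap (log2 difference -0.36, limma adjusted p = 0.637). Icam1 read 7.83, 7.85 and 7.78 against 7.90 to 8.24, from 7.46 to 7.72 in vehicle, also without overlap (-0.27). Zc3h12a, Lcn2 and Irak3, at -0.36, -0.34 and -0.20, overlapped. PTH(1-36) lay nearer to vehicle in 15 of the 20 response genes of the list. Over the same arrays 19 of 24 macrophage and osteoclast markers had a difference below 0 (median -0.07, range -0.21 to 0.22, 0 called). Mmp9, a gelatinase of osteoclasts and macrophages, was the one with an unadjusted p under 0.05, at 5.07, 4.94 and 5.09 against 5.11 to 5.52. No marker of the list was listed at 0. Csf1r, the receptor of macrophage colony-stimulating factor, read 10.18, 9.80 and 10.10 with PTH(1-36) and 10.03 to 10.24 with the shorter peptides. The part of these cells in the inflammatory differences was not tested.

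Cholesterol synthesis lay the other way. Of 16 measured enzymes 15 had a difference above 0, the highest median of the lists at 0.12, with 0 called and 5 at an unadjusted p under 0.05 on the high side, where 3.34% of all genes lay. Hmgcs1, which makes the precursor of mevalonate, read 9.84, 9.77 and 9.91 with PTH(1-36), 9.68, 9.70 and 9.76 with hPTH(1-34), 9.68, 9.70 and 9.64 with hPTH(1-31), and 9.48 to 9.58 in vehicle. The 3 PTH(1-36) arrays were above all others, with a log2 difference of 0.15 (95% interval 0.02 to 0.28; limma adjusted p = 0.734). Hsd17b7, which acts late in the pathway, read 8.41, 8.28 and 8.59 against 8.17 to 8.35, from 7.59 to 7.61 in vehicle (0.18). Ebp, a sterol isomerase, read 7.74, 7.80 and 7.80, near the 7.78 to 7.83 of vehicle, against 7.47 to 7.69 with the shorter peptides (0.20). Sqle and Cyp51 had differences of 0.22 and 0.17 with overlap, and Pmvk, at -0.14, was the enzyme below 0. Without PTH(1-36) replicate 3 the difference of Cyp51 was 0.08, that of Hsd17b7 0.10 and that of Pmvk -0.09. Among the 8 response genes of the list PTH(1-36) lay nearer to vehicle in 4 and further in 4. Insig1, a sterol sensor that responds to the same regulator, had an interval of -0.20 to 0.24, and the 19 genes of sterol uptake, sensing and export had a median of 0.00.

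**Figure D5:**
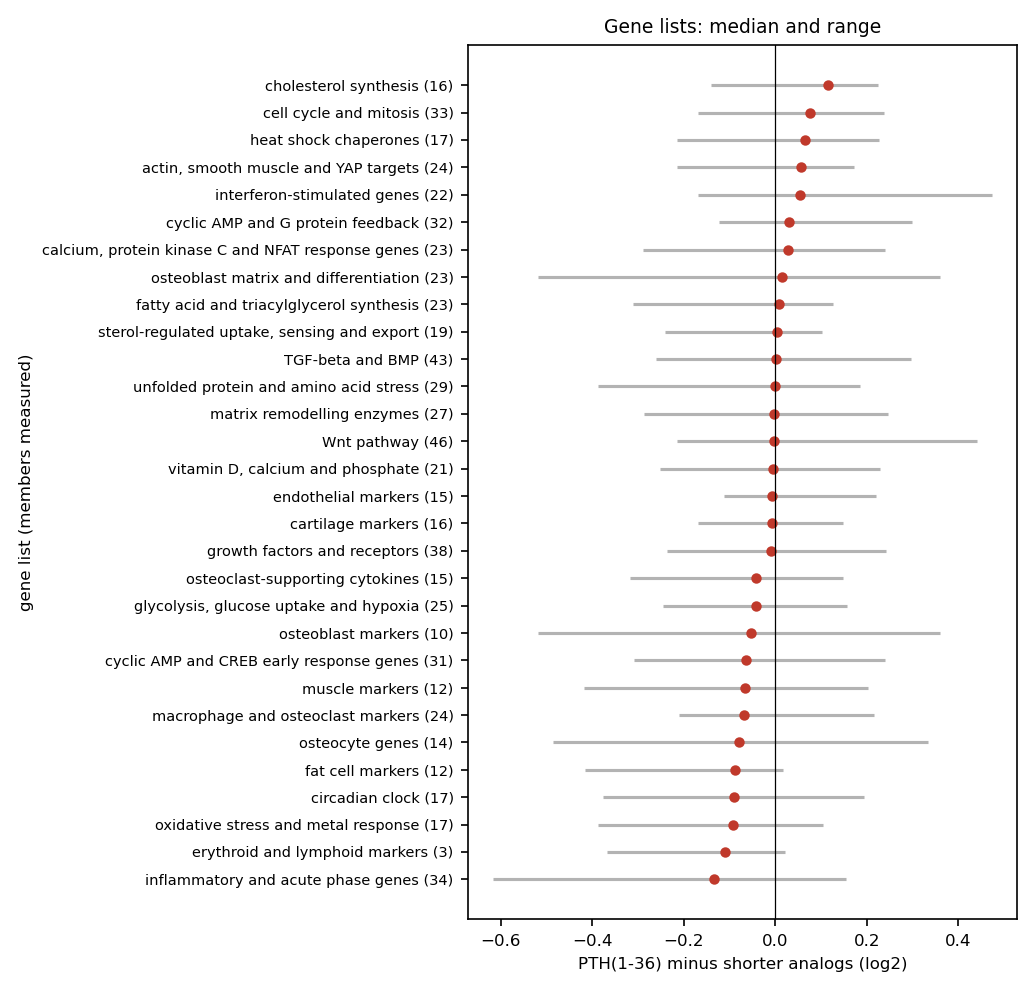
Median (red point) and range (grey line) of the log2 difference between PTH(1-36) and the shorter analogs (horizontal axis) in the 23 gene lists and 7 marker lists, with the number of members measured. Cholesterol synthesis has the highest median (0.12) and inflammatory and acute phase genes the lowest (-0.13), and no list holds a called gene.

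Of 23 measured genes of bone matrix and osteoblast differentiation, 0 were called and 1 had an unadjusted p under 0.05, with a median difference of 0.01. Col1a1 read 13.25, 13.22 and 13.24 with PTH(1-36) and 13.19 to 13.24 with the shorter peptides, with an interval of -0.09 to 0.13. Alpl, the alkaline phosphatase of mineralizing osteoblasts, read 9.39, 9.20 and 9.10 with PTH(1-36), 9.55, 9.56 and 9.36 with hPTH(1-34), 9.67, 9.47 and 9.37 with hPTH(1-31), and 8.75 to 9.03 in vehicle. It was called against vehicle with hPTH(1-34) and hPTH(1-31) (limma adjusted p = 0.00125 and 0.000961, with 8.64% and 8.70% of all genes called) and not with PTH(1-36) (limma adjusted p = 0.0951, 7.23% of genes called). The difference itself, -0.27, did not pass (limma adjusted p = 0.651). Sp7 fell with all 3 peptides and overlapped among them. Ibsp, a bone sialoprotein, ranged from 5.47 to 9.25 over the 6 shorter-analog arrays and was 9.25 on the array of hPTH(1-31) replicate 1, so its interval, -1.59 to 0.55, bounds little. Phex, an osteocyte peptidase, read 4.22, 4.11 and 4.22 against 4.27 to 4.97, near its vehicle level of 4.12 to 4.56 (-0.48, limma adjusted p = 0.613). Mmp13, a collagenase, had an interval of -0.02 to 0.35.

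TGF-beta and BMP genes had 0 of 43 called and a median of 0.00. Bmp2 and Bmp4, the ligands, fell with every peptide, and their intervals were -0.22 to 0.26 and -0.15 to 0.41. Id3, a target of BMP signals, read 6.95, 6.85 and 7.03 with PTH(1-36) and 6.46 to 6.84 with the shorter peptides, from 7.43 to 7.49 in vehicle, without overlap, and reached 63.8% of their fall (log2 difference 0.30, limma adjusted p = 0.512). Grem1 (gremlin), a BMP antagonist, rose with every peptide and read 7.91, 8.21 and 8.08 with PTH(1-36) against 8.18 to 8.36 (-0.18, and -0.10 without PTH(1-36) replicate 1). Cell cycle genes had 26 of 33 differences above 0 and a median of 0.08, with 0 called and 4 response genes. Actin, smooth muscle and YAP target genes had a median of 0.06, and PTH(1-36) lay nearer to vehicle in 12 of their 14 response genes. In the oxidative stress and metal list it lay nearer in 8 of 8 (median of the list -0.09), and in the circadian clock in 7 of 9. The other lists had 0 called genes and medians between -0.08 and 0.07. Marker lists for endothelium, cartilage, fat, muscle and blood cells also had 0 called, with medians from -0.11 (3 erythroid and lymphoid markers) to -0.01. Of the fat markers 11 of 12 had a difference below 0, beside 11127 of 22180 genes. The largest, in Cidec, Lep, Plin1 and Adipoq (-0.42, -0.37, -0.35 and -0.22), were at low signals of 2.34 to 4.23. At higher signals, Pparg, Cebpa, Lpl and Cd36 had -0.01, -0.02, -0.15 and 0.02.

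The intervals, taken for each gene without adjustment over genes, show how precisely each difference was measured. They do not give the size a gene needed to be called: 72 genes differed by over 1.5-fold and 1 was called. Over all genes the 95% interval of the difference reached 0.26 log2 units to each side (median). It lay within 1.5-fold in both directions for 19278 genes (86.9%) and within 2-fold for 21993 (99.2%). Among the 2647 response genes it lay within 1.5-fold for 2530 (95.6%) and within 2-fold for all but 3, Prg4, Cd7 and the predicted gene Gm13034. These genes were chosen in the same fit, which favours a small spread and so narrower intervals. The measured difference passed 1.5-fold in 3 response genes, Prg4, Cxcl14 and Cd7, a lymphocyte surface protein that was low on the array (mean 2.90 with PTH(1-36)). Pair by pair, the interval lay within 1.5-fold for 92.6% of response genes against hPTH(1-34), 92.5% against hPTH(1-31), and 94.0% between hPTH(1-34) and hPTH(1-31).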

How the data were processed

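The series measured total RNA of 21 samples in 7 groups. The deposited table holds signals that the authors made with RMA in Affymetrix Expression Console, per the submitters' processing notes; versions, settings and the base of the logarithm are not stated. The deposited signals were taken to be log2 because RMA gives that scale and their range fits it. No array was left out, and 0 columns were unused. The number of arrays limits the precision.

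Of 41345 transcript clusters, 23521 had 1 symbol in the platform annotation, 1814 had several and 16010 were not in it; 23328 gene identifiers matched RefSeq. Clusters with 1 symbol were used, and the cluster with the highest mean over 21 arrays stood for each of 1082 genes with several. All 21 arrays entered 1 limma 3.58.1 fit (R 4.3.3, lmFit and eBayes, 7 groups). Besides vehicle and the 3 peptides, the groups were bPTH(3-34) and hPTH(7-34) at 100 nM and bPTH(7-34) at 1000 nM. The spread of each gene thus came from all 7 groups, with 14 residual degrees of freedom. The contrast gave hPTH(1-34) and hPTH(1-31) equal weight. p-values were two-sided with Benjamini-Hochberg adjustment, and genes under an adjusted p of 0.05 are called. The fit was also run on simulated data with 200 changed genes. The outcome of that run is not reported here, and no call rests on it. Arrays were not paired by replicate number, because the labels do not state that 1 number marks 1 preparation across treatments. Deviations of same-numbered arrays correlated at 0.013 to 0.098, which does not settle whether they shared a preparation.

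The members and lists were chosen with earlier results of these data known. The naming rule took up to 15 called, non-overlapping genes per direction, filled to 10 by unadjusted p (predicted genes, clones, small RNAs and chemosensory receptors left out), up to 3 members of each of 23 lists, a panel of 29 genes (27 measured) and up to 5 called genes per pair and direction. Cell markers given by value, Ibsp, Mmp9, Cd7, Gm13034, the R-spondins, Fzd8, Axin2, Wnt4, Zc3h12a, Icam1, Irak3, Sqle, Cyp51, Grem1 and those of the 22 non-overlapping response genes outside the rule were named after their values were seen. Alternatives changed the arrays fitted, the gene filter, the clusters, the scaling, the variance model and the replicates.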

Additional observations from a re-analysis of the deposited data

Results flagged for a closer look

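Of 125 items examined over the 6 shorter-analog arrays, 6 had 1 array far from the others by Dixon's criterion, which chance flags in about 1 of 20 groups. In 3 of them hPTH(1-34) replicate 3 was the lowest: Igf2 at 7.84 log2 units with the next at 8.01, Cat at 11.6, and Nr4a1 at 7.36 with the next at 7.94. In Col1a2, hPTH(1-34) replicate 2 was lowest at 12.8, and in Grem1 it was highest at 8.36 with the next at 8.24. In Mmp9, hPTH(1-31) replicate 1 was highest at 5.52 with the next at 5.24.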

How the results depend on the processing

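Prg4 stayed lower with PTH(1-36) under every alternative run (log2 -1.05 to -0.72 without 1 array at a time). The counts of called genes were small enough that 1 gene moved them. With the 9 arrays of the 3 peptides alone, 0 genes were called in the pooled comparison, 0 in each pair and 0 by the F test, and with the shorter analogs as 1 group 0 were called (1347 at an unadjusted p under 0.05). Over all transcript clusters the counts were 2 (pooled), 2 (against hPTH(1-34)), 0 (against hPTH(1-31)) and 1 (F test, a cluster without a symbol here, with Prg4 and Map2k6 both lost); of genes above the median level and after a further quantile normalization, 3 were called against hPTH(1-34); with arrays centred on their medians the F test called 0; with trend and robust variances the counts were 2 (Prg4 and Cxcl14), 3 and 4 (F test). Without 1 array at a time the pooled comparison called 0 to 1 genes, each pair with PTH(1-36) 0 to 3, and the F test 0 to 3. With the replicate block, which the labels do not state as a pairing, the counts were 1, 1, 1, 0 and 2, as without it. The mean response differed by -0.041 from the shorter analogs, by -0.0453 to -0.0365 without 1 array at a time and by -0.126 over genes changed at least 2-fold, an alternative added after seeing the data. Genes near 0 changed sign: Col1a1 to -0.0185 (quantile), Tnfrsf11b to -0.0114 (array weights), and without 1 array Adm -0.148 to 0.222, Bmp2 -0.0583 to 0.0983, Crem -0.0233 to 0.152, Il6 -0.0167 to 0.293, Insig1 -0.0183 to 0.0525, Nr4a3 -0.123 to 0.00833, Pth1r -0.00833 to 0.154, Rgs2 -0.0533 to 0.0467, Sost -0.333 to 0.0567, Sp7 -0.2 to 0.005, Tnfrsf11b -0.132 to 0.163 and Tnfsf11 -0.165 to 0.155. Without 1 PTH(1-36) array, these differences shrank by over 1.5 times: Igsf21 to -0.305, Rspo1 to 0.0717, Vdr to -0.117, Cyp51 to 0.0783, Hsd17b7 to 0.102, Pmvk to -0.09 and Grem1 to -0.0983. Ibsp moved between -0.908 and -0.0908. Causes were not tested.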
